A study of Mus musculus with 12 samples.

Results

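The TAM receptors Axl, Mertk and Tyro3, their ligands Gas6 and Pros1, the bridging protein Mfge8 and the phosphatidylserine receptors Timd4 and Stab1 were followed in BMDMs, which are macrophages that form when bone marrow cells of the mouse are cultured with M-CSF. These 8 genes were chosen by name with earlier results of these data known, and were found among the 48795 genes listed by Ensembl identifier. The identifiers, matched to GENCODE M21 on GRCm38, were ENSMUSG00000002602.16 for Axl (chr7:25757273-25788705, minus strand), ENSMUSG00000014361.5 for Mertk (chr2:128698956-128802894, plus strand) and ENSMUSG00000027298.17 for Tyro3 (chr2:119797733-119818104, plus strand). Gas6 was ENSMUSG00000031451.6 (chr8:13465374-13494490, minus strand) and Pros1 was ENSMUSG00000022912.8 (chr16:62854307-62929346, plus strand). Mfge8 was ENSMUSG00000030605.15 (chr7:79133768-79149060, minus strand), Timd4 was ENSMUSG00000055546.6 (chr11:46810800-46844332, plus strand) and Stab1 was ENSMUSG00000042286.13 (chr14:31139013-31168641, minus strand). Exons of Gas6 overlapped those of Tmem255b over 34 bases and exons of Stab1 overlapped those of Nt5dc2 over 112 bases, so reads in those bases could not be assigned to 1 gene without the strand setting, which was not given in the sources used here. Of the 8 genes, 6 had a CPM (its reads scaled to a common library total) above 1.5 in at least 2 libraries and were tested, while Tyro3 and Timd4 were below this level in every library.

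Dying cells expose phosphatidylserine on their surface, and macrophages recognise it through proteins that bind the lipid directly or through soluble bridges. GAS6 and protein S (Pros1) are vitamin K-dependent bridges that tie phosphatidylserine to the TAM receptor tyrosine kinases, whose signalling promotes engulfment and dampens the inflammatory response of the macrophage. MFG-E8 is a bridge to the αv integrins, while TIM-4 (Timd4) and stabilin-1 (Stab1) bind the lipid themselves. The study asked how the loss of Acod1, the gene for the enzyme that makes itaconate, and the addition of a cell-permeable itaconate derivative change macrophages exposed to particles.

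The 12 libraries formed 6 groups of 2, labelled as separate replicates. WT BMDMs came from mice labelled C57BL/6 (C57BL/6NJ in the study's methods), and Acod1-/- BMDMs from C57BL/6NJ-Acod1em1(IMPC)J/J mice, all male. The cells received vehicle (PBS), PM (urban dust particles, 20 µg/cm2 for 24 hours), or 4-octyl itaconate (OI, 0.25 mM) for 2 hours before PM. No library had OI without PM, so the effect of OI was measured only in PM-exposed cells. The labels do not state whether replicates came from separate animals or cultures, so p-values measure only the spread between these samples, which may be technical.

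Between 33616577 and 36817898 reads were counted on genes per library (median 34480636), and normalized CPM below are scaled by TMM. All 8 macrophage markers examined (such as Adgre1 and Csf1r) were expressed, and none of the dendritic cell, mast cell or basophil, B cell, T or NK cell, or fibroblast markers passed the CPM filter. The macrophage markers summed to a mean of 14993 CPM with vehicle, 25152 with PM and 15500 with OI+PM in WT. In Acod1-/- cells these means were 14853, 26035 and 15228 CPM, and their part in the members' changes was not tested. Of 6 neutrophil markers S100a8 and S100a9 passed, with at most 1 read of Ly6g in any library, and of 4 endothelial markers Kdr passed. Acod1 was counted at 69 and 98 reads in vehicle-treated, 6346 and 5908 in PM-treated and 1087 and 1688 in OI+PM-treated WT libraries, and at 46 and 44, 3660 and 3271, and 812 and 871 reads in the corresponding Acod1-/- libraries. These counts cover the whole gene, and the part removed by the deletion was not given in the sources used here, so they do not check the genotype. Nnt, which carries a deletion in C57BL/6J but not in C57BL/6N mice, was at 37.5 ± 0.259 CPM in vehicle-treated WT cells and 73.3 ± 1.35 CPM in vehicle-treated Acod1-/- cells (SD, n = 2). Nnt shares exons with another annotated copy, so its values are uncertain to that extent. Every difference between genotypes below cannot be told apart from a difference in strain background. The 2 WT libraries with OI+PM differed most from each other, by a median of 0.253 on the log2 scale across 11208 genes against 0.0513 to 0.165 in the other groups, and the members are given with and without each of them where that mattered. The difference between the replicates went with exonic length across these genes in PM-treated and OI+PM-treated WT cells (Spearman's rho of -0.596 and -0.607, replicate 2 against replicate 1), with values from -0.287 to 0.356 in the other groups. Genes are not independent replicates, and values with a correction for gene length are given below for Stab1 and Lrp1. In bulk RNA, fewer cells that express a gene and less RNA per cell cannot be told apart.

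**Figure D1:**
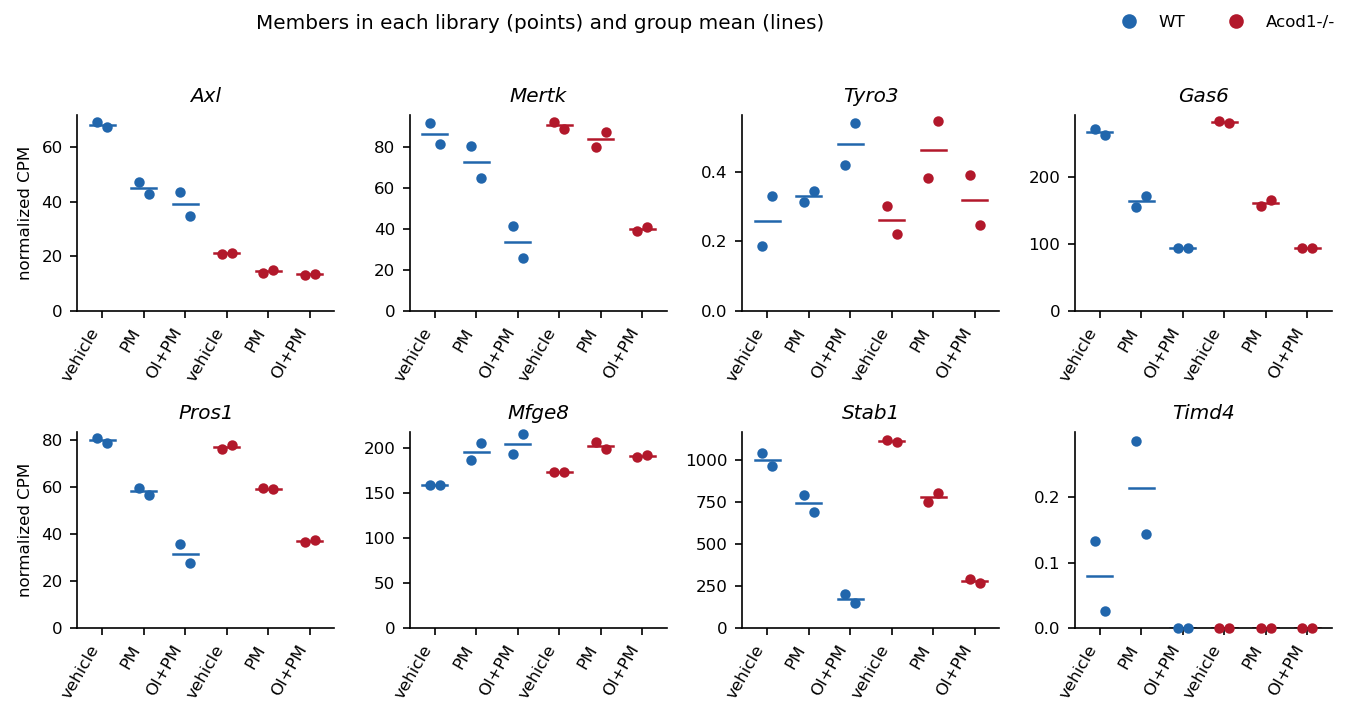
Normalized CPM (y axis, from 0) of the 8 members in each of the 12 libraries, by group on the x axis, with a line at the mean of 2 libraries in WT (blue) and Acod1-/- (red). Axl was lower in each Acod1-/- library than in any WT library, the difference for which it was chosen. Stab1 dropped to between 149 and 290.4 CPM in the 4 libraries with OI. Mfge8 stayed between 159 and 215 CPM, and Tyro3 and Timd4 stayed below 1.5 CPM.

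Read counts per kilobase of exon allow the levels of different genes to be compared. In vehicle-treated WT cells Gas6 (105 ± 2.67 CPM per kb) and Stab1 (97.6 ± 5.30) were the most abundant, followed by Mfge8 (33.9 ± 0.0912). Mertk (19.9 ± 1.66) and Pros1 (19.5 ± 0.318) were at similar levels, Axl was at 13.6 ± 0.250, and Tyro3 (0.0418 ± 0.0164) and Timd4 (0.0366 ± 0.0352) were near the limit of detection (SD, n = 2). With OI+PM, Mfge8 (43.5 ± 3.31 CPM per kb in WT) was the most abundant, above Gas6 (36.8 ± 0.260) and Stab1 (17.0 ± 3.59).

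Axl, the TAM receptor known for its induction by inflammatory and interferon signals, was at 69.1 and 67.4 normalized CPM in vehicle-treated, 47.4 and 42.8 in PM-treated and 43.5 and 34.8 in OI+PM-treated WT libraries. In Acod1-/- libraries it was at 21.02 and 21.3 CPM with vehicle, 13.9 and 15.1 with PM, and 13.3 and 13.5 with OI+PM. The 6 Acod1-/- libraries did not overlap the 6 WT libraries, the highest Acod1-/- library (21.3 CPM) lying below the lowest WT library (34.8 CPM). Axl was included because it is lower in Acod1-/- cells, so this difference is described here without a test. It was 3.22-fold lower with vehicle (log2 fold change -1.69, SE 0.10), 3.11-fold with PM (-1.64, SE 0.11) and 2.91-fold with OI+PM (-1.54, SE 0.11), or 31.0%, 32.2% and 34.3% of the WT mean. Among 11228 genes tested, Axl had the 7th lowest log2 fold change of Acod1-/- against WT with vehicle, the 9th lowest with PM and the 22nd lowest with OI+PM. These ranks and the separation of the libraries restate the difference for which Axl was chosen and are no further result. Within each genotype PM lowered Axl by a similar size, 1.51-fold in WT (log2 fold change -0.60, SE 0.10, edgeR quasi-likelihood test with Benjamini-Hochberg adjustment, adjusted p = 0.00216) and 1.46-fold in Acod1-/- cells (-0.55, SE 0.11, adjusted p = 0.00492). The genotypes did not differ detectably in this response (interaction 0.05, 95% interval -0.28 to 0.38, adjusted p = 0.9998). Adding OI to PM gave log2 fold changes of -0.20 (95% interval -0.43 to 0.02, adjusted p = 0.13) in WT and -0.11 (-0.36 to 0.14, adjusted p = 0.493) in Acod1-/- cells. The size of the WT value depended on 1 library, since without OI+PM replicate 1 it was -0.38 and without replicate 2 it was -0.05. Taken by replicate number, Axl fell in each WT pair, from 47.4 to 43.5 CPM and from 42.8 to 34.8 CPM. The labels do not state that such libraries are paired.

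Mertk, the receptor on which resting macrophages mainly rely to engulf apoptotic cells, fell with OI and did not differ detectably between genotypes. It was at 91.6 and 81.4 CPM in vehicle-treated, 80.2 and 64.9 in PM-treated, and 41.5 and 25.9 in OI+PM-treated WT libraries, and at 92.3 and 88.9, 80.1 and 87.4, and 39.0 and 41.0 in the corresponding Acod1-/- libraries. The 4 libraries with OI lay below the other 8. Within each genotype the PM libraries lay below the vehicle libraries, but the groups overlapped across genotypes. OI lowered Mertk 2.15-fold relative to PM in WT (log2 fold change -1.10, SE 0.18, edgeR quasi-likelihood adjusted p = 0.000891) and 2.09-fold in Acod1-/- cells (-1.07, SE 0.18, adjusted p = 0.00118). In WT this value was -1.48 without OI+PM replicate 1 and -0.81 without replicate 2, and it passed the threshold in each case. PM alone gave -0.25 (95% interval -0.65 to 0.15) in WT and -0.11 (-0.51 to 0.28) in Acod1-/- cells, and neither passed the threshold (adjusted p = 0.302 and 0.661). Mertk did not differ detectably between genotypes with vehicle (0.07, 95% interval -0.33 to 0.47), with PM (0.21, -0.19 to 0.61) or with OI+PM (0.24, -0.17 to 0.65). With OI+PM that difference was 0.62 (adjusted p = 0.00408) without WT replicate 1 and -0.05 without WT replicate 2.

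Tyro3, the third TAM receptor, which is known best from neurons, was counted at 7 and 13, 11 and 12, and 14 and 16 reads in WT libraries with vehicle, PM and OI+PM, and at 11 and 8, 13 and 19, and 13 and 8 reads in the Acod1-/- libraries. In normalized CPM, WT libraries with OI+PM lay above those with vehicle or PM, and Acod1-/- libraries with PM lay above those with vehicle. The genotypes overlapped with vehicle but not with PM, where Acod1-/- libraries were higher, or with OI+PM, where WT libraries were higher. Tyro3 was below the CPM filter, and the fits with a looser filter or none called it in no comparison.

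The make-up of the TAM receptors was described by reads per kb. Its difference between the genotypes restates the lower Axl level for which Axl was chosen and is no further result. Axl made up 39.4% and 41.6% of the TAM receptors in vehicle-treated WT libraries, 33.7% and 36.1% with PM, and 47.2% and 53.2% with OI+PM. In Acod1-/- libraries its share was 16.4% and 17.1%, 12.9% and 12.9%, and 22.7% and 22.0%. The Mertk to Axl ratio went from 1.86 ± 0.146 with PM to 0.987 ± 0.172 with OI+PM in WT, and from 6.70 ± 0.000198 to 3.46 ± 0.0946 in Acod1-/- cells (SD, n = 2). The summed level of the TAM receptors was 33.5 ± 1.90 CPM per kb in vehicle-treated WT and 25.2 ± 0.523 in vehicle-treated Acod1-/- cells. It was 25.8 ± 3.125 and 22.3 ± 1.37 with PM, and 15.6 ± 3.75 and 11.9 ± 0.346 with OI+PM. Tyro3 was at most 0.673% of the sum in any library.

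**Figure D2:**
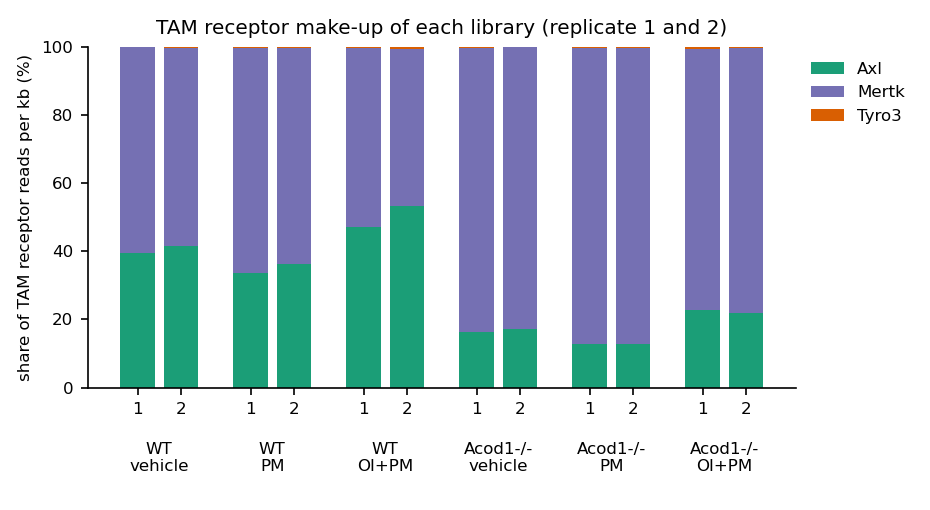
Share of Axl, Mertk and Tyro3 in the reads per kb of the TAM receptors (y axis, percent, stacked bars) in each library (x axis, replicates 1 and 2 of each group). Axl took 33.7% to 53.2% in WT libraries and 12.9% to 22.7% in Acod1-/- libraries, which restates the difference for which Axl was chosen, and its share was highest with OI+PM in each genotype.

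Promoter sequences of the TAM receptors that changed are shown because Axl differed between genotypes while Mertk followed OI. They run from 250 bases before to 50 bases after the RefSeq start (GRCm38.p6, on the gene's strand), with GC boxes (GGGCGG on either strand) in capitals. The Axl window is chr7:25788684-25788983 (minus strand) and the Mertk window is chr2:128698665-128698964 (plus strand).
Axl: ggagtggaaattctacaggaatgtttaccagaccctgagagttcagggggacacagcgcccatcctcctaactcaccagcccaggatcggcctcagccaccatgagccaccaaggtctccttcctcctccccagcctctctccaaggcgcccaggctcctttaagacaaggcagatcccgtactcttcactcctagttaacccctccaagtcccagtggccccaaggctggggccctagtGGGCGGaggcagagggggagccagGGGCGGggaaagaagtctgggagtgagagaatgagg
Mertk: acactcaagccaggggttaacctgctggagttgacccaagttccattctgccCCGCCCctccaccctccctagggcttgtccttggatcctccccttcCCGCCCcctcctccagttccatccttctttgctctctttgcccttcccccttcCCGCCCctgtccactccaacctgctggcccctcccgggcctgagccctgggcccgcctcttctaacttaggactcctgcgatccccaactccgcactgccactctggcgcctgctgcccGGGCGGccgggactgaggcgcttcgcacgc
The Axl window held 2 GC boxes and 6 CpG dinucleotides, and the Mertk window held 4 GC boxes and 14 CpG dinucleotides. GC boxes occurred in 35.6% of 32817 promoter windows of this length. Neither window held an AP-1 site (TGANTCA, 7.81% of windows), an NRF2 element core (TGACNNNGC, 12.4%), an E-box (CACGTG, 7.15%), an interferon-stimulated response element (TTTC and TTTC with 2 bases between, 3.43%) or a PU.1 site (GAGGAAGT, 3.20%), searched on both strands. A match or its absence describes these letters in this window only.

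Gas6, the TAM ligand that binds each of the receptors, fell stepwise with PM and again with OI. It was at 272 and 262 CPM in vehicle-treated, 156 and 171 in PM-treated, and 94.2 and 93.3 in OI+PM-treated WT libraries. The Acod1-/- libraries were at 283 and 279.8, 157 and 165, and 93.7 and 94.2 CPM. The steps did not overlap in either genotype. With vehicle the Acod1-/- libraries lay slightly above the WT libraries, while with PM and with OI+PM the genotypes overlapped. PM lowered Gas6 1.63-fold in WT (log2 fold change -0.71, SE 0.06, edgeR quasi-likelihood adjusted p = 3.51e-05) and 1.75-fold in Acod1-/- cells (-0.80, SE 0.06, adjusted p = 1.17e-05). OI lowered it a further 1.74-fold in WT (-0.80, SE 0.06, adjusted p = 4.11e-06) and 1.72-fold in Acod1-/- cells (-0.78, SE 0.06, adjusted p = 5.54e-06). The mean with OI+PM was 35.2% of the vehicle mean in WT and 33.4% in Acod1-/- cells. Between genotypes the 95% intervals of the log2 fold change were -0.06 to 0.22 with vehicle, -0.16 to 0.12 with PM and -0.14 to 0.14 with OI+PM, so a change of more than 1.5-fold lay outside them.

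Pros1, which encodes protein S, an anticoagulant and a ligand of Mertk and Tyro3, moved in the same direction. It was at 80.6 and 78.8, 59.6 and 56.7, and 35.5 and 27.4 CPM in WT libraries with vehicle, PM and OI+PM, and at 76.1 and 77.8, 59.4 and 59.1, and 36.5 and 37.5 CPM in the Acod1-/- libraries. Here too each treatment step separated the libraries of each genotype. PM lowered Pros1 1.37-fold in WT (log2 fold change -0.46, SE 0.10, edgeR quasi-likelihood adjusted p = 0.00951) and 1.30-fold in Acod1-/- cells (-0.38, SE 0.10, adjusted p = 0.0219). OI lowered it 1.84-fold in WT (-0.88, SE 0.10, adjusted p = 7.46e-05) and 1.60-fold in Acod1-/- cells (-0.68, SE 0.10, adjusted p = 0.000484). Gas6 was the more abundant TAM ligand throughout. The Gas6 to Pros1 ratio per kb was 5.37 ± 0.0493 with vehicle, 4.52 ± 0.467 with PM and 4.85 ± 0.850 with OI+PM in WT (SD, n = 2). In Acod1-/- cells it was 5.87 ± 0.139, 4.36 ± 0.177 and 4.07 ± 0.0655. The summed level of the TAM ligands was 124 ± 2.99 CPM per kb with vehicle, 78.4 ± 3.85 with PM and 44.5 ± 1.66 with OI+PM in WT, and 129 ± 0.672, 77.8 ± 2.30 and 45.9 ± 0.305 in Acod1-/- cells.

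The Gas6 window (chr8:13494486-13494785, minus strand) and, for contrast, that of Stab1 (chr14:31168592-31168891, minus strand) are shown because these genes fell with PM and with OI in each genotype, capitals again marking GC boxes.
Gas6: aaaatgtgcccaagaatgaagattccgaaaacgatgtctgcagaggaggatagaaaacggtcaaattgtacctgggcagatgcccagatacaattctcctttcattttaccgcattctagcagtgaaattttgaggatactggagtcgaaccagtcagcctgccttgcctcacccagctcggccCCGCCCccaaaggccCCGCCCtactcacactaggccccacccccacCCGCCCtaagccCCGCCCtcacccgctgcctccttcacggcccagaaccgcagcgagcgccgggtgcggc
Stab1: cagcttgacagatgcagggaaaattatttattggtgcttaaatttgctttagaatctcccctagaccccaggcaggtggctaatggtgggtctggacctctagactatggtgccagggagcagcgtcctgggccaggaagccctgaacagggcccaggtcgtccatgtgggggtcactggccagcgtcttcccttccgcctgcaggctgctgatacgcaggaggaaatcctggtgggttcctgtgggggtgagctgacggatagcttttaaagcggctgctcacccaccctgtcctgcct
The Gas6 window held 4 GC boxes and 17 CpG dinucleotides, whereas the Stab1 window held no GC box and 7 CpG dinucleotides. The windows of Tyro3, Pros1 and Mfge8 held 6, 5 and 4 GC boxes and that of Timd4 held 0. None of the 8 windows held any of the other motifs searched.

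Mfge8, the bridge to αvβ3 and αvβ5 integrins, was the only one of the 6 members tested that rose in a treatment comparison. It was at 159 and 159.5 CPM in vehicle-treated, 187 and 205 in PM-treated, and 193 and 215 in OI+PM-treated WT libraries, and at 174 and 174, 206.8 and 199, and 190.5 and 192 CPM in the Acod1-/- libraries. Every library with PM was above every vehicle-treated library, while the libraries with and without OI overlapped in WT. PM raised Mfge8 1.23-fold in WT (log2 fold change 0.30, SE 0.07, edgeR quasi-likelihood adjusted p = 0.012) and 1.17-fold in Acod1-/- cells (0.22, SE 0.07, adjusted p = 0.0406). The WT value fell short of the threshold without vehicle replicate 1, vehicle replicate 2 or PM replicate 2 (adjusted p = 0.0855, 0.0737 and 0.0947). The Acod1-/- value fell short of the threshold with total count scaling (adjusted p = 0.0936), with either looser filter on low counts (0.0521 and 0.099) and without any vehicle library or any Acod1-/- library. OI did not change it detectably relative to PM, with 95% intervals of -0.09 to 0.21 in WT and -0.24 to 0.07 in Acod1-/- cells. The Mfge8 to Gas6 ratio per kb went from 0.324 ± 0.00914 with vehicle to 0.651 ± 0.000276 with PM and 1.18 ± 0.0983 with OI+PM in WT. In Acod1-/- cells it went from 0.335 ± 0.00332 to 0.684 ± 0.0435 and 1.11 ± 0.00351 (SD, n = 2).

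Stab1, a scavenger receptor of macrophages and sinusoidal endothelium, had the largest response to OI of the 6 members tested. It was at 1043 and 966 CPM in vehicle-treated, 797 and 694 in PM-treated, and 201 and 149 in OI+PM-treated WT libraries. The Acod1-/- libraries were at 1122 and 1111, 754 and 807, and 290.4 and 271 CPM. Each treatment step separated the libraries of each genotype, and the Acod1-/- libraries lay above the WT libraries with vehicle and with OI+PM but overlapped them with PM. The summed level of the 4 endothelial markers also moved with OI, from 2.29 to 2.48 CPM with PM to 0.812 to 0.839 CPM with OI+PM in WT and from 1.68 to 2.10 CPM to 0.739 to 1.14 CPM in Acod1-/- cells, and its part in the Stab1 values was not tested. PM lowered Stab1 1.35-fold in WT (log2 fold change -0.43, SE 0.12, edgeR quasi-likelihood adjusted p = 0.0308) and 1.43-fold in Acod1-/- cells (-0.52, SE 0.12, adjusted p = 0.0132). With a correction for gene length these values were -0.22 (adjusted p = 0.0133) and -0.33 (adjusted p = 0.00118), and Stab1 has 10288 exonic bases. OI lowered it 4.26-fold in WT (-2.09, SE 0.13, adjusted p = 6.90e-07) and 2.78-fold in Acod1-/- cells (-1.48, SE 0.13, adjusted p = 8.20e-06). The mean with OI+PM was 17.4% of the vehicle mean in WT and 25.1% in Acod1-/- cells. Stab1 was 1.60-fold higher in Acod1-/- than in WT cells with OI+PM (0.68, SE 0.12, adjusted p = 0.0146), and the difference was 0.92 (adjusted p = 0.000237) without WT replicate 1 and 0.48 (adjusted p = 0.0163) without WT replicate 2. It fell short of the threshold when either Acod1-/- library with OI+PM was left out (adjusted p = 0.119 and 0.0823) and when edgeR was fitted to the compared groups alone (0.70, adjusted p = 0.322). With the gene length correction it was 0.55 (adjusted p = 0.000294). The test of whether OI acted differently in the genotypes gave 0.62 (95% interval 0.22 to 1.01) with an unadjusted p of 0.00574 and an adjusted p of 0.585, so the smaller response of Acod1-/- cells did not pass correction. Without WT OI+PM replicate 1 the interaction was 0.85 (adjusted p = 0.0142), and without replicate 2 it was 0.41 (adjusted p = 0.429). It also passed with the gene length correction (0.54, adjusted p = 0.0413) and without a filter on low counts (0.63, adjusted p = 7.70e-06).

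Timd4, which marks resident macrophages of the peritoneum and other tissues, was counted at 5 and 1 reads in vehicle-treated and 10 and 5 reads in PM-treated WT libraries. The other 8 libraries, among them all 6 Acod1-/- libraries, had 0 reads, which allows up to 3 reads, or 0.0849 to 0.0892 CPM before TMM scaling, per library (counting error only). The 4 libraries with reads, at 0.0255 to 0.286 normalized CPM, held 1 to 10 reads against this limit of 3.

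In the comparison of PM with vehicle, 5 of the 6 members tested passed the threshold of an adjusted p of 0.05 in WT cells and 5 of 6 in Acod1-/- cells (edgeR quasi-likelihood test with Benjamini-Hochberg adjustment), against 24.8% and 23.9% of all genes tested. In each genotype these were Axl, Gas6, Pros1 and Stab1, which fell, as did 12.2% and 11.9% of all genes, and Mfge8, which rose, as did 1414 and 1344 of the 11228 genes. The comparisons in WT and in Acod1-/- cells do not share libraries. Both come from the same fit of all libraries, with a shared estimate of the spread, so their tests are not independent. None of these changes reached 2-fold, which 4.15% and 4.50% of all genes did. The median log2 fold change of the members was -0.44 in WT and -0.45 in Acod1-/- cells, against 0.01 and -0.0002 over all genes. The members were chosen with earlier results of these data known. Their counts and medians beside all genes, here and below, are therefore descriptions and not tests. The summed level of the 6 neutrophil markers moved with PM, from 4.86 to 5.53 CPM with vehicle to 11.5 to 17.6 CPM with PM in WT and from 4.998 to 5.49 CPM to 15.4 to 17.4 CPM in Acod1-/- cells, and its part in the members' changes was not tested. Only Axl and Gas6 passed in WT cells without vehicle replicate 1, vehicle replicate 2 or PM replicate 2, and Stab1 also fell short without either vehicle-treated Acod1-/- library (adjusted p = 0.0532 in each case). The same 2 genes passed in Acod1-/- cells without either vehicle library, Axl, Gas6 and Stab1 passed without PM replicate 2, and Gas6 alone passed without PM replicate 1, where Axl had an adjusted p of 0.0548.

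For OI+PM against PM, 4 of 6 members passed in WT cells and 4 of 6 in Acod1-/- cells, against 43.9% and 34.6% of all genes tested (edgeR quasi-likelihood test). In each genotype Mertk, Gas6, Pros1 and Stab1 fell, as did 22.6% and 20.6% of all genes, and Axl and Mfge8 did not pass. Mertk and Stab1 fell by more than 2-fold in each genotype, as did 10.8% and 9.83% of all genes in either direction. The median of the members was -0.84 in WT and -0.73 in Acod1-/- cells, against 0.02 and -0.0006 over all genes. The summed level of the 6 neutrophil markers also moved with OI, from 11.5 to 17.6 CPM with PM to 29.3 to 61.0 CPM with OI+PM in WT and from 15.4 to 17.4 CPM to 32.8 to 33.6 CPM in Acod1-/- cells. Most of this was S100a8 (at most 60.5 CPM), while Ly6g, Elane, Mpo and Camp were at or near 0 (at most 0.230 CPM). Fibroblast markers, all below the CPM filter, summed to means of 1.33 CPM with PM and 0.435 CPM with OI+PM in WT. In Acod1-/- cells these means were 2.38 and 0.803 CPM. The mast cell or basophil sum, also below the filter, rose from 0.876 to 1.87 CPM in WT and from 0.813 to 1.51 CPM in Acod1-/- cells. The part of these markers in the members' changes was not tested.

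Over the combined step from vehicle to OI+PM, 6 of 6 members passed in WT and 5 of 6 in Acod1-/- cells, beside 65.5% and 49.4% of all genes tested (edgeR quasi-likelihood test). The members that fell were 5 in each genotype, beside 31.9% and 26.7% of all genes, and 1 rose in WT, beside 33.6% of all genes. Mertk fell 2.56-fold and 2.27-fold, Gas6 2.84-fold and 2.997-fold, Pros1 2.53-fold and 2.08-fold, and Stab1 5.74-fold and 3.98-fold in WT and Acod1-/- cells. Axl fell 1.74-fold and 1.58-fold, below the 2-fold mark. Mfge8 rose in WT (log2 fold change 0.36, SE 0.07, adjusted p = 0.00137) and had 0.14 (SE 0.07, adjusted p = 0.118) in Acod1-/- cells. The WT value was 0.14 (adjusted p = 0.0628) with total count scaling, and the Acod1-/- value passed with the compared groups fitted alone (0.16, adjusted p = 0.000286) and without either WT OI+PM library (adjusted p = 0.0486 and 0.049), so no difference between the genotypes is read from these calls. These comparisons share their vehicle-treated and OI+PM-treated libraries with the ones above.

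Between the genotypes, 1.83%, 2.40% and 6.96% of all genes tested passed with vehicle, PM and OI+PM (edgeR quasi-likelihood test), of which 0.935%, 1.30% and 4.45% were lower and 0.891%, 1.10% and 2.51% were higher in Acod1-/- cells. Axl, chosen for this difference, is left out of the members' count. Of the other 5 members tested, 0 passed with vehicle, 0 with PM and 1 with OI+PM, where Stab1 was higher. With vehicle and with PM, 0 of these 5 had an unadjusted p under 0.05 and 0 passed with DESeq2, but Mfge8 (0.11, adjusted p = 0.0129) and Stab1 (0.14, adjusted p = 0.0022) passed with vehicle when edgeR was fitted to the compared groups alone. That fit called 2316 of all genes with vehicle, against 205 in the main fit. Mertk, Gas6, Pros1 and Mfge8 gave log2 fold changes between -0.09 and 0.24 over the 3 treatments. Pros1 with OI+PM had 0.23 (95% interval 0.0006 to 0.46, adjusted p = 0.17), and without WT OI+PM replicate 1 it had 0.43 (adjusted p = 0.00204). In the interaction of genotype with PM and that of genotype with OI, 0 members passed, against 0.00% of all genes, while 273 and 717 genes had an unadjusted p under 0.05, and DESeq2 called 3 and 34 genes. The share for the interaction with OI changed with 1 library, since 525 genes were called without WT OI+PM replicate 1, and 58 were called without a filter on low counts and 21 with the gene length correction. The count of 782 genes behind the 6.96% went to 5452 without that library, and to 95 and 101 without either Acod1-/- library with OI+PM.

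**Figure D3:**
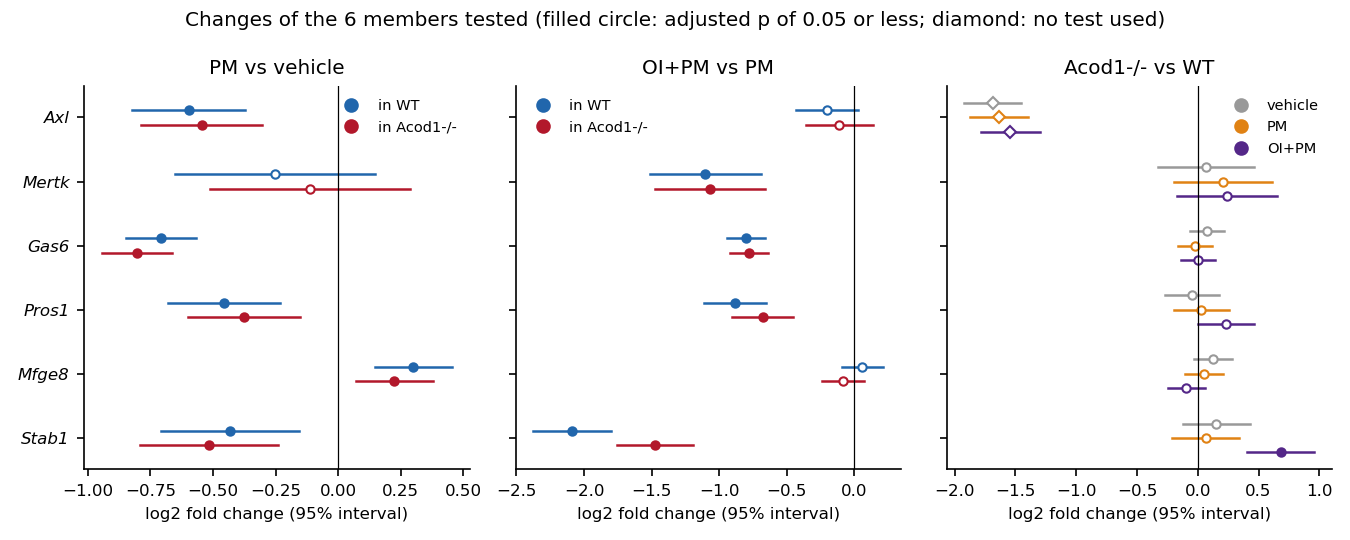
Log2 fold changes (x axis) with 95% intervals for the 6 members tested (y axis) in 3 panels, for PM against vehicle, OI+PM against PM, and Acod1-/- against WT, colored by genotype or treatment. Filled circles passed an adjusted p of 0.05, open circles did not, and diamonds mark Axl between genotypes, for which no test was used; the OI panel shows Stab1 farthest from 0 (-2.09 in WT and -1.48 in Acod1-/- cells).

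The remaining machinery of apoptotic cell clearance was described by 82 other genes in 7 roles, of which 74 were tested. This list too was chosen with earlier results of these data known, so its shares beside all genes are descriptions only. With PM, 20 rose and 16 fell in WT cells and 20 rose and 11 fell in Acod1-/- cells, with medians of 0.01 and 0.03. These calls were 48.6% and 41.9% of the list, beside 24.8% and 23.9% of all genes tested. With OI+PM against PM, 10 rose and 30 fell in WT and 9 rose and 30 fell in Acod1-/- cells, with medians of -0.18 and -0.21. In the OI comparison 30 of the 74 genes (against 4 of the 6 members) fell in each genotype, beside 21.3% higher and 22.6% lower of all genes in WT and 13.9% higher and 20.6% lower in Acod1-/- cells. Several genes named here have exons that overlap another gene (Stab2, Itgav, Thbs1, Cx3cr1, P2ry12, Nr1h3 and Adam17), and their values are uncertain to that extent.

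Among 14 other receptors for apoptotic cells that were tested, 4 rose and 5 fell with PM in WT cells and 3 rose and 3 fell in Acod1-/- cells, or 64.3% and 42.9% called, beside 24.8% and 23.9% of all genes. The steepest falls in WT were those of Stab2, the close relative of Stab1 (log2 fold change -1.11), Itgav, the αv integrin that docks Mfge8 (-0.87), and Lrp1, the receptor associated with calreticulin on dying cells (-0.81, adjusted p = 0.038 by edgeR's quasi-likelihood test). Itgav was at 219 ± 3.13 CPM with vehicle and 120 ± 24.6 CPM with PM (SD, n = 2). With the gene length correction Lrp1 had -0.46, and it did not pass when any vehicle library, WT PM replicate 2 or either Acod1-/- library with OI+PM was left out. With OI 5 rose and 5 fell in each genotype, 71.4% called, beside 43.9% and 34.6% of all genes. Itgb3, the β3 integrin partner of Itgav, rose 2.83-fold in WT and 2.11-fold in Acod1-/- cells, reaching 20.0 ± 1.71 CPM and 12.4 ± 0.451 CPM. The scavenger receptor Cd36 rose 1.90-fold in WT and 2.28-fold in Acod1-/- cells, reaching 14837 ± 1234 and 17404 ± 60.6 CPM, and Scarb1 rose 2.01-fold and 1.73-fold. Cd300lf, a lipid receptor of myeloid cells, fell 11.6-fold in WT and 10.5-fold in Acod1-/- cells.

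Of 9 bridging and eat-me or do-not-eat-me molecules, 5 fell and 0 rose with OI in WT and 6 fell and 0 rose in Acod1-/- cells, beside 22.6% lower and 21.3% higher of all genes in WT and 20.6% and 13.9% in Acod1-/- cells. For PM against vehicle, 3 rose and 1 fell in WT and 3 rose and 2 fell in Acod1-/- cells. These calls were 44.4% and 55.6%, beside 24.8% and 23.9% of all genes. Thbs1, thrombospondin 1, which bridges dying cells to CD36 and integrins, was at 63.0 ± 5.70 CPM in vehicle-treated WT and 217 ± 3.38 CPM in vehicle-treated Acod1-/- cells, 3.45-fold higher (edgeR quasi-likelihood adjusted p = 0.00328). PM lowered Thbs1 2.58-fold in Acod1-/- cells (to 84.03 ± 7.73 CPM), and in WT cells, where it did not pass, the level with PM was 47.3 ± 9.79 CPM (log2 fold change -0.41, adjusted p = 0.192). The difference between these responses did not pass (interaction -0.96, adjusted p = 0.9998). Of the 6 find-me signals and receptors, 5 fell and 1 rose with OI in each genotype, so that each was called. Cx3cr1, the fractalkine receptor, went from 14.9 ± 1.74 to 0.561 ± 0.116 CPM in WT, 26.5-fold lower, and was 30.2-fold lower in Acod1-/- cells. P2ry12, a nucleotide receptor, fell 14.4-fold from vehicle to OI+PM in WT and 12.8-fold in Acod1-/- cells.

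Engulfment signalling had 15 genes tested, of which 2 rose and 6 fell with PM in WT and 3 rose and 4 fell in Acod1-/- cells (53.3% and 46.7% called, beside 24.8% and 23.9% of all genes). Src, a kinase downstream of integrins and TAM receptors, rose with PM 1.88-fold in WT cells, from 10.03 ± 0.861 to 18.8 ± 1.85 CPM, and 2.44-fold in Acod1-/- cells, from 9.83 ± 0.165 to 24.03 ± 0.139 CPM. Of 10 genes of phagosome maturation and digestion, 4 rose and 0 fell with PM in each genotype (40.0% called), led by Cybb, the catalytic subunit of the phagocyte NADPH oxidase (2.22-fold in WT and 2.63-fold in Acod1-/- cells). Among 10 genes of lipid efflux and nuclear receptors, which handle the lipid of engulfed cells, OI lowered Abca1, the cholesterol exporter, 16.6-fold in WT and 18.8-fold in Acod1-/- cells and raised Ppard 2.43-fold and 1.82-fold.

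Of 10 genes for shedding, ligand carboxylation and TAM signalling, 3 rose and 1 fell with PM in WT and 3 rose and 0 fell in Acod1-/- cells (40.0% and 30.0% called, beside 24.8% and 23.9% of all genes). Socs3, a suppressor of cytokine signalling of the kind that TAM receptors induce, rose 10.7-fold with PM in each genotype, but from 0.246 ± 0.0837 CPM in WT. Adam17, the protease that sheds Mertk and Axl from the surface, was 1.24-fold higher in Acod1-/- than in WT cells with PM (385 ± 28.1 CPM in WT and 477 ± 2.36 CPM in Acod1-/- cells, edgeR quasi-likelihood adjusted p = 0.0356), as was Ifnar1, an interferon receptor chain, at 1.28-fold. These 2 calls were lost with the compared groups fitted alone, with total count scaling, and without WT PM replicate 2 or any Acod1-/- or vehicle library.

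Between the genotypes 4 of the 74 genes passed with vehicle, 4 with PM and 10 with OI+PM, or 5.41%, 5.41% and 13.5% of the list, beside 1.83%, 2.40% and 6.96% of all genes tested. With vehicle these were Thbs1, higher, and Cd300lf (2.29-fold), Cx3cr1 (2.00-fold) and Scarb1 (1.21-fold), lower in Acod1-/- cells. Scarb1 had an adjusted p of 0.0481 and fell short in most alternatives (0.0675 with the replicate block). Thbs1 fell short without WT replicate 2 (0.068), Cd300lf without Acod1-/- replicate 2 (0.053), and Cx3cr1 without WT replicate 2 or either Acod1-/- library. With PM, Cd300lf was 2.09-fold lower and Abca1 1.96-fold higher (adjusted p = 0.0249, edgeR quasi-likelihood test), and Abca1 fell short without WT PM replicate 2 (0.133) or any Acod1-/- library, and Cd300lf without Acod1-/- PM replicate 2 (0.0658). With OI+PM, Nr1h3, Itgb3 and Ppard had the largest falls (1.64-, 1.61- and 1.41-fold) and Cybb, S1pr1 and Ifnar1 the largest rises (1.43-, 1.31- and 1.27-fold). These 6 calls with OI+PM were lost with the compared groups fitted alone and without either Acod1-/- library with OI+PM. In the interactions 0 of the 74 passed.

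**Figure D4:**
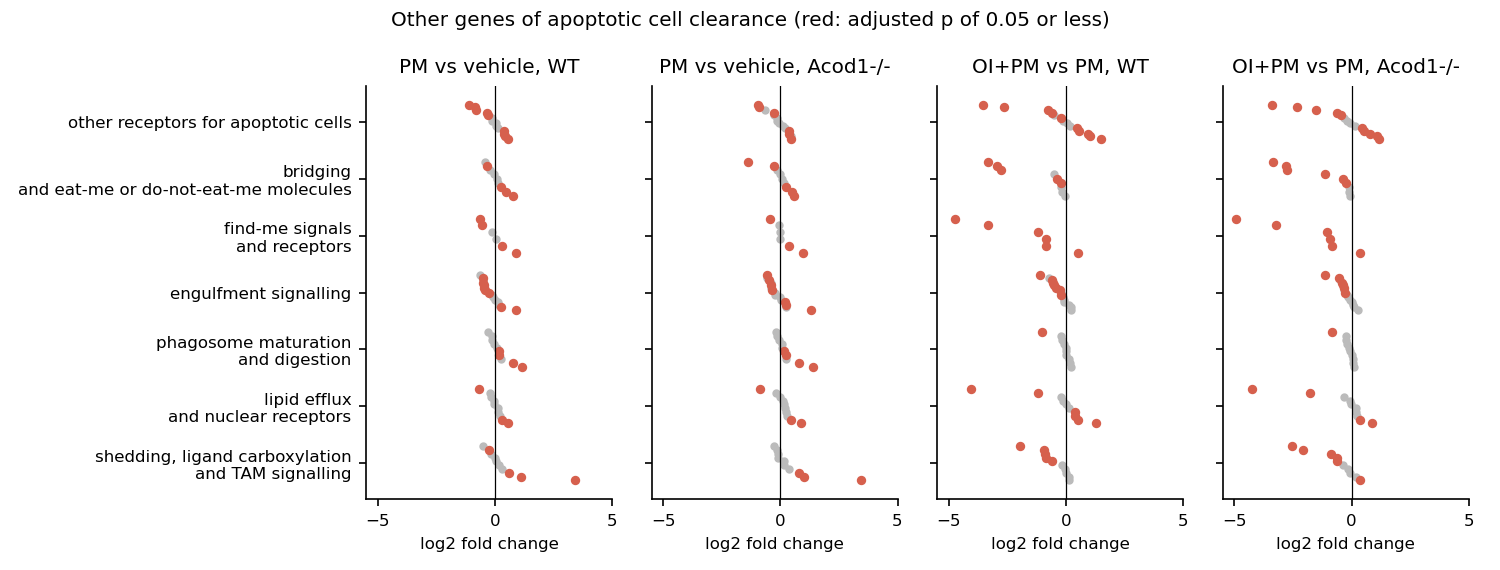
Log2 fold changes (x axis) of the 74 tested genes of apoptotic cell clearance, each a point, by role (y axis) for PM against vehicle and OI+PM against PM in each genotype, red where the adjusted p was 0.05 or less. Points lie on either side of 0 in each comparison. With OI+PM 30 genes fell in each genotype, led by Cx3cr1, Abca1 and Cd300lf, while 10 rose in WT and 9 in Acod1-/- cells. Of all genes tested, 22.6% fell and 21.3% rose in WT, and 20.6% fell and 13.9% rose in Acod1-/- cells.

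Across the 12 libraries the log2 CPM of Mertk, Gas6, Pros1 and Stab1 rose and fell together, with Pearson's r between 0.879 (Mertk with Gas6) and 0.982 (Pros1 with Stab1). Axl correlated with these 4 genes at 0.140 to 0.325, values that include the genotype difference for which it was chosen, and the same holds for the genes named below as most like Axl. Within each genotype the mean of Axl was highest with vehicle and lowest with OI+PM, as were those of these 4 genes. Mfge8 was inversely related to them (-0.567 to -0.722). These values describe 12 libraries that share treatment groups and are not tests. Among 9558 genes compared, those with a pattern most like that of Axl were Wwc2 (r = 0.993), Atp2a3 (0.982) and Igf2bp3 (0.968). Exons of Wwc2, Igf2bp3, Tbc1d2b, Rttn, Fermt3 and Maf overlap another gene. For Mertk they were Arhgap1 (0.993), Cpd (0.990) and Tbc1d2b (0.990), for Gas6 Pcp4l1 (0.997), Fcrls (0.997) and Nes (0.996), and for Pros1 Tgfbr2 (0.995), Nup155 (0.995) and Rttn (0.995). Stab1 was followed most closely by the transcription factor Maf (0.998), Frmd4b (0.997) and Arhgap19 (0.997), and Mfge8 by Fermt3 (0.976), Chmp4b (0.974) and Maged2 (0.9701). Maf ranged from 44.5 to 381 CPM over the libraries and Wwc2 from 11.9 to 34.4 CPM.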

How the data were processed

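RNA was sequenced as single-end reads of 50 bases in 12 libraries. Per the study's methods and the submitters' processing notes, the authors checked reads with FastQC 0.11.5, mapped them to GRCm38 with STAR 2.5.3a, assessed quality with Picard 2.9.0 and RSeQC, and counted genes with featureCounts. What the authors deposited are unnormalized, unfiltered read counts for each gene. The annotation release, strand setting and handling of multi-mapping reads are not given in the sources used here. Identifiers were matched to GENCODE M21 for symbols, positions and exonic lengths (48349 of 48795), and promoters were taken from RefSeq for all 8 members.

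The 11228 genes with more than 1.5 CPM in 2 or more libraries were tested. TMM-scaled counts entered edgeR 4.0.16 (R 4.3.3), whose quasi-likelihood test used 1 mean per group (6 groups) and no replicate block, for 11 contrasts. Benjamini-Hochberg adjustment covered all genes tested in a contrast, and a gene was called at an adjusted p of 0.05 or less. The study used DESeq2 with a 2-fold threshold, which are alternatives here (DESeq2 1.42.0). Standard errors are those implied by the test, and intervals of log2 fold changes use the fit's degrees of freedom. Groups came from the deposited labels. The members and gene lists were chosen with earlier results of these data known. All 8 members are named, with Acod1 and Nnt as checks, in each comparison the 3 largest rises and falls among called genes of the clearance list (1 of these genes is not reported here), and the 3 genes (mean CPM of at least 5) with the highest Pearson's r of log2 CPM (prior count 2) to each member. Further alternatives were a fit of only the groups being compared, scaling by RLE or by total count, filters on low counts (10 counts in total, CPM above 1.5 in all 12 libraries, or none), a gene length correction (a lowess curve with a span of 0.3 as offset), the replicate block, and each library left out. The fit was tested on simulated data. Depth was 33616577 to 36817898 counts per library, and intervals cover counting and sample spread of 2 libraries only.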

Additional observations from a re-analysis of the deposited data

How the results depend on the processing

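The members called kept their count within 1.5 times in 232 of 253 results and settings. With a threshold of 2-fold beside the adjusted p, 0 members were called for PM against vehicle in WT and 0 in Acod1-/- cells, 2 and 2 (Mertk and Stab1) for OI+PM against PM, and 1 between genotypes with OI+PM. The counts between genotypes here include Axl, which was chosen for that difference, so this 1 is Axl and 0 of the other 5 members were called. With edgeR on the compared groups alone, 3 members (2 without Axl, namely Mfge8 and Stab1) were called between genotypes with vehicle. In that fit 2316 genes in all were called, against 205 in the main fit. With OI+PM 0 members and 2 genes in all were called, and the log2 fold change of Axl was -1.52. For the interaction of genotype with OI, 1 member (Stab1) was called without a filter on low counts, 1 with the gene length correction and 1 with the replicate block and that correction. The cause of these differences was not tested.

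With each library left out in turn, the members called ranged from 2 to 5 for PM in WT, 1 to 5 for PM in Acod1-/- cells, 1 to 4 between genotypes with OI+PM (0 to 3 without Axl), and 0 to 2 for the interaction with OI, where Stab1 and Pros1 were called without WT OI+PM replicate 1. An arm left with 1 library is assumed to vary like the other groups. The log2 fold change of Axl between genotypes stayed between -1.71 and -1.37 in these fits and between -1.70 and -1.48 in the others. This range describes the difference for which Axl was chosen and is no test of it.

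Values near 0 changed direction, none of them called after the change. With total count scaling, which shifted the median of all genes by -0.13 for OI+PM against PM and by -0.22 for OI+PM against vehicle in WT, Mfge8 had -0.073 for OI+PM against PM in WT and -0.0090 for OI+PM against vehicle in Acod1-/- cells, and its rise with OI+PM against vehicle in WT fell short of the threshold (0.14, adjusted p = 0.0628). Gas6 between genotypes with PM was 0.028 with the gene length correction and 0.029 with the replicate block added. With a library left out, Mfge8 with OI in WT ranged from -0.020 to 0.13. Between genotypes, Mertk with vehicle ranged from -0.015 to 0.16. With PM between genotypes, the ranges were -0.09 to 0.051 for Gas6, -0.0078 to 0.062 for Pros1, -0.020 to 0.12 for Mfge8 and -0.030 to 0.17 for Stab1. With OI+PM between genotypes they were -0.055 to 0.62 for Mertk and -0.0048 to 0.011 for Gas6. For the interaction with PM they were -0.019 to 0.13 for Axl, -0.0057 to 0.30 for Mertk and -0.18 to 0.020 for Stab1, and for the interaction with OI -0.058 to 0.26 for Axl, -0.26 to 0.42 for Mertk and -0.049 to 0.10 for Gas6.

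The count of all genes called moved by more than 1.5 times in 72 of 253 results and settings. Between genotypes it went from 205, 269 and 782 with vehicle, PM and OI+PM to 54, 63 and 103 with the 2-fold threshold, 2316, 174 and 2 with the compared groups alone, 429, 694 and 2339 without a filter, and 375, 590 and 1724 with the gene length correction. For PM it went from 2782 and 2684 in WT and Acod1-/- cells to 466 and 505 with the 2-fold threshold, and for OI from 4926 and 3881 to 1211 and 1104. With each library left out in turn, it ranged between genotypes from 52 (without Acod1-/- vehicle replicate 2) to 394 (WT OI+PM replicate 2) with vehicle, from 74 (Acod1-/- PM replicate 1) to 698 (WT OI+PM replicate 1) with PM and from 95 (Acod1-/- OI+PM replicate 1) to 5452 (WT OI+PM replicate 1) with OI+PM. For PM it ranged from 1187 (WT vehicle replicate 1) to 5052 (WT OI+PM replicate 2) in WT and from 1391 (Acod1-/- PM replicate 1) to 4467 (WT OI+PM replicate 1) in Acod1-/- cells, and for the interaction with OI from 0 to 525 (WT OI+PM replicate 1). Of 50 calls of clearance genes, 9 were lost in another setting than the 2-fold threshold, 16 with a library left out, and 0 changed direction.

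Same-numbered libraries deviated together between the 3 pairs of WT groups (correlations of 0.23, 0.24 and 0.73), but not between the other groups throughout (-0.41 to 0.73 over all 15 pairs of groups). The labels do not say that a number marks a shared animal or day, so the samples were taken to share only a number. A block for the WT groups alone was not fitted, so a pairing within WT was not tested. With the replicate block alone, 5 members were called for PM and 4 for OI+PM against PM in each genotype, and no call of a member changed. Tyro3 and Timd4 had at most 19 reads in a library, which limits the precision of their values.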
